A study of Mus musculus with 11 samples.

Results

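The 10 immediate early genes Fos, Fosb, Fosl2, Junb, Egr1, Egr3, Npas4, Nr4a1, Arc and Ier2 were followed in medial prefrontal cortex (mPFC) neurons that express the type 1 corticotropin releasing factor receptor (CRF1). They were taken by symbol, as widely used markers of neuronal activation, and make up 10 of the 53465 genes counted in these mice. All 10 were among the 17093 genes with enough counts to be tested. RNA was sequenced from mPFC CRF1+ neurons of adult male CRF1:GFP mice, a reporter line in which GFP marks CRF1-expressing cells, after papain dissociation of the tissue and fluorescence-activated cell sorting. A separate library was made for each mouse from 160 pg of RNA. The 6 naïve mice had air and pyrazole, an inhibitor of alcohol dehydrogenase. The 5 withdrawn mice had spent weeks in chronic intermittent ethanol vapor, with ethanol injected alongside the pyrazole, and were then kept in forced abstinence for days. All mice therefore shared the reporter, the pyrazole, the dissociation and the sort, and no undissociated tissue was compared. For withdrawn mice 3, 4 and 5, another sample label reads control, so values without these 3 mice are given as well. The design text of the deposit also counts 5 control and 6 ethanol mice, the reverse of the 6 and 5 that the title and treatment of each sample give, and every direction below rests on the labels of the samples.

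Immediate early genes are transcribed soon after strong synaptic input or growth factor signals, without new protein synthesis, when calcium entry and kinases act on factors already present at their promoters, among them CREB at cAMP response elements (CRE) and SRF at CArG boxes. Fos, FosB and Fra-2 (the product of Fosl2) pair with Jun proteins such as JunB to form AP-1, while EGR1, EGR3, NPAS4 and NR4A1 are transcription factors of other families and Arc acts at synapses. The transcripts are short-lived, so that their levels report the recent past of the cells, which for sorted neurons includes the dissociation as well as the last period in the animal.

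The libraries held 7351567 to 22244869 counts on genes, at which 3 counts of a gene correspond to 0.135 to 0.408 CPM, counts scaled to a common library size. The 10 genes lay above this floor in every mouse, with the lowest count being 29, of Npas4 in withdrawn mouse 1. Crhr1, which encodes the receptor the sort was based on, was at 42.2 to 136 CPM, with a log2 fold change of -0.05 between withdrawn and naïve mice (SE 0.26, edgeR adjusted p = 0.984). Withdrawn mouse 4 stood apart from the other libraries. It had the fewest counts on genes, the most genes detected (31830) and the largest share of tallied reads outside annotated exons (48.1%). Its summed CPM over 6 pan-neuronal markers was 6202, below that of every other mouse (8188 to 12305). Naïve mouse 5 stood at the other end, with the fewest genes detected (15585) and the smallest share of reads outside exons (5.77%).

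The stretches before the transcription start of Fos, Fosb and Nr4a1 are shown here 5′ to 3′ on the strand of the gene, as RefSeq gives them on GRCm38.p6. Capitals mark CRE cores (TGACG or its reverse complement) and EGR sites (GCGNGGGCG or its reverse complement). The Fos stretch is chr12:85473640-85473889 on the plus strand. The Fosb stretch is chr7:19310052-19310295 on the minus strand, and its last base lies 7 bases before the RefSeq start, because the annotation has an exon from there on. The Nr4a1 stretch is chr15:101266596-101266845 on the plus strand.
Fos: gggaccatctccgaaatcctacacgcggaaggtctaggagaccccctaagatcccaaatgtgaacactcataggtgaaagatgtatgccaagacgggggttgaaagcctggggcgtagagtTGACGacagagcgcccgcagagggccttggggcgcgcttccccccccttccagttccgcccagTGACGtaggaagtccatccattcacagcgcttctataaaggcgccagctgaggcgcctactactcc
Fosb: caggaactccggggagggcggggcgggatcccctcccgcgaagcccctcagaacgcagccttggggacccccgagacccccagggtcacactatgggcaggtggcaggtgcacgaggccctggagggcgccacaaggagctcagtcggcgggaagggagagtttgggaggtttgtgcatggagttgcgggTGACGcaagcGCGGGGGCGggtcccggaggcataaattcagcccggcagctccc
Nr4a1: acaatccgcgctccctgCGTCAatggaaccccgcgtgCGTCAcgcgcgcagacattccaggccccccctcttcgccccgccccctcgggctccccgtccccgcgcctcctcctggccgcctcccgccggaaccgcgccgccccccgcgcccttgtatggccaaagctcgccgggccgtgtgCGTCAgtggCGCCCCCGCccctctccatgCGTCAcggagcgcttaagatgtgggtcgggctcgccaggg

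The 250 bases before the start were searched on both strands in the 6 genes of the set with a RefSeq promoter, Fos, Fosb, Fosl2, Junb, Npas4 and Nr4a1. The CRE core TGACG was found in 5 of the 6, all but Fosl2, against 17.8% of 32851 promoters of this length. Nr4a1 held 4 such cores, Fos and Npas4 held 2 each, and Fosb and Junb held 1 each. The core nearest to the start spanned 66 to 62 bases before it in Fos and 60 to 56 bases before it in Fosb. An EGR site was found in 3 of the 6, Fosb, Fosl2 and Nr4a1, against 4.7% of all promoters. The full CRE palindrome TGACGTCA (which contains the core), the AP-1 site TGANTCA and the CArG box were found in 0 of the 6, against 1.55%, 6.75% and 1.47% of all promoters. In the annotation used here, all 250 bases of the Fosl2 and Npas4 windows lie in exons, since it has starts farther upstream, and the Nr4a1 window lies inside the gene as annotated. These are matches of letters in a window of 250 bases. Sites farther upstream were not searched for any of the motifs, and binding was not measured.

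Withdrawn mice were compared with naïve mice to ask whether abstinence from chronic ethanol left these genes at another level. Fos had the largest difference of the 10, with 4 of 5 withdrawn mice above every naïve mouse, and Fosl2, which encodes another Fos family protein, was lower, with 5 of 5 withdrawn mice below the naïve median. Neither passed the test, nor did the other 8 (edgeR quasi-likelihood, adjusted p of 0.05 or less and a log2 fold change beyond 0.6), and DESeq2 called 0 of the 9 for which it gave a p, all but Ier2 (0 of 10 without its Cook's distance cutoff). Over all tested genes edgeR called 1 of 17093 (0.00585%) and DESeq2 called 362 of 40831 (0.887%), so that no call among them is near the background of either test. At an unadjusted p under 0.05, edgeR placed 1 of the 10, Fos, higher in withdrawn mice, against 5% of all tested genes, and 1 of the 10, Fosl2, lower, against 2.22%. The log2 fold change was above 0 for 3 of the 10 (Fos, Ier2 and Junb, of which Ier2 and Junb turned below 0 without withdrawn mouse 4) and below 0 for 7 (of which Egr3 turned above 0). Its median was -0.15, beside 0.02 over all tested genes. The CPM ranges of the groups overlapped for all 10, while 0.948% of all tested genes had ranges that did not overlap. In bulk RNA of sorted cells, fewer cells with a transcript and less transcript per cell cannot be told apart.

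**Figure D1:**
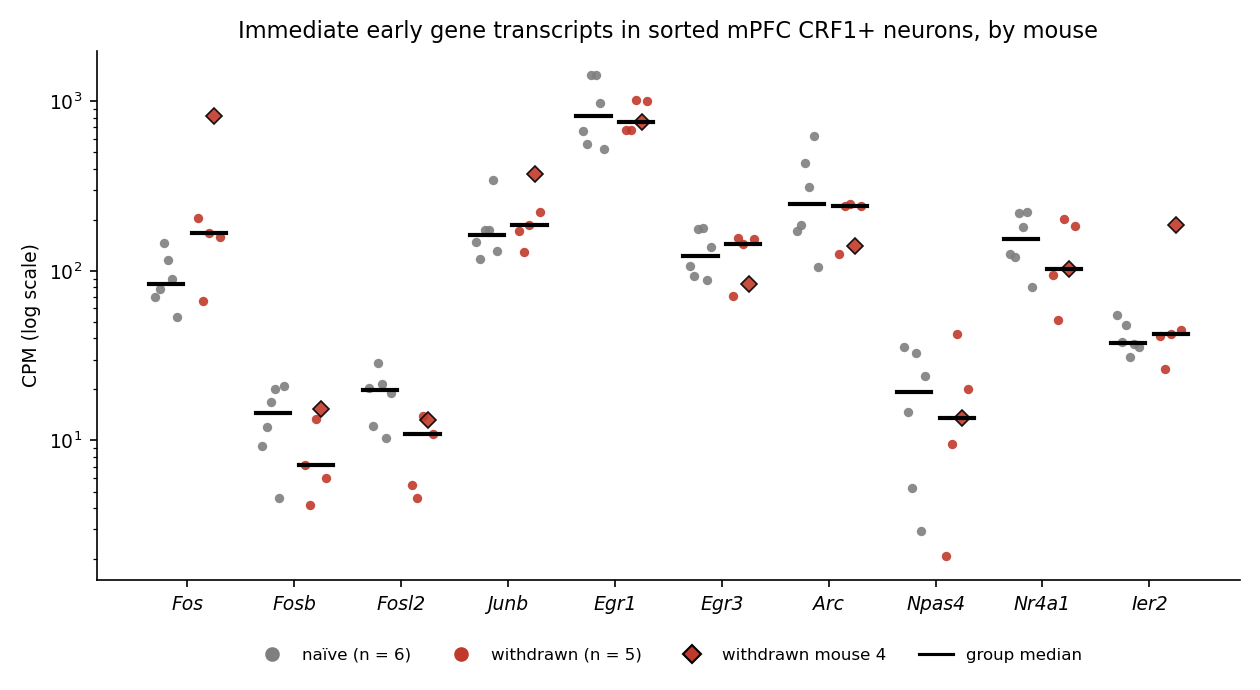
CPM of the 10 immediate early genes (log axis) in each naïve mouse (grey, n = 6) and each withdrawn mouse (red, n = 5), with group medians as black bars and withdrawn mouse 4 as a diamond. The groups overlap for every gene, and withdrawn mouse 4 lies above all other mice in Fos (819 CPM) and Ier2 (187 CPM).

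Fos (ENSMUSG00000021250, chromosome 12, 85473890 to 85477273, plus strand) encodes the AP-1 subunit most often used to mark activated neurons. In naïve mice it ran from 53.7 CPM in mouse 6 over a median of 84.1 to 146 CPM in mouse 3. Withdrawn mice 1 to 5 had 204, 66.4, 168, 819 and 159 CPM. Withdrawn mouse 2 was thus the only withdrawn mouse within the naïve range, and withdrawn mouse 4 alone supplied 57.8% of the summed CPM of its group. The log2 fold change was 1.61 (SE 0.50, edgeR unadjusted p = 0.0065, adjusted p = 0.349), and DESeq2 gave 1.68 with an adjusted p of 0.0962. Without withdrawn mouse 4 the log2 fold change was 0.69 (SE 0.31, edgeR unadjusted p = 0.0467, adjusted p = 0.981). The other 4 withdrawn mice then averaged 149 ± 58.7 CPM (SD, n = 4), against 92.5 ± 33.6 CPM (SD, n = 6) in naïve mice. The mice with the conflicting label include 3 of the 4 that exceeded the naïve range, and without these 3 the log2 fold change was 0.52 (edgeR unadjusted p = 0.246).

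Fosb (ENSMUSG00000003545, chromosome 7, 19302696 to 19310051, minus strand) encodes FosB and, from an alternatively spliced transcript, the truncated ΔFosB that accumulates on repeated stimulation. The counts are per gene and do not separate these forms. Naïve mice ran from 4.61 CPM in mouse 5 over a median of 14.4 to 20.9 CPM in mouse 6. The withdrawn mice had 7.13, 4.14, 13.5, 15.2 and 6.01 CPM in mice 1 to 5. Only withdrawn mouse 4 was above the naïve median, and withdrawn mouse 2 was below every naïve mouse. edgeR gave a log2 fold change of -0.60 (SE 0.49, unadjusted p = 0.241, adjusted p = 0.868).

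Fosl2 (ENSMUSG00000029135, chromosome 5, 32135801 to 32157842, plus strand) encodes Fra-2, a Fos family protein without the strong activation domain of Fos. Levels ran from 10.3 CPM (mouse 5) over a median of 19.8 to 28.6 CPM (mouse 3) in naïve mice. In withdrawn mice 1 to 5 they were 5.47, 4.59, 14.0, 13.3 and 11.0 CPM. All 5 withdrawn values lay below the naïve median, and those of mice 1 and 2 lay below every naïve mouse. The log2 fold change was -0.95 (SE 0.42, edgeR unadjusted p = 0.0398, adjusted p = 0.653), and DESeq2 gave -0.92 with an adjusted p of 0.286. Unlike that of Fos, the difference did not shrink without withdrawn mouse 4, at -1.08 (SE 0.46, edgeR adjusted p = 0.941). It was -1.94 without the 3 mice with conflicting labels, a fit that rests on withdrawn mice 1 and 2 (edgeR unadjusted p = 0.0095).

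Junb (ENSMUSG00000052837, chromosome 8, 84974484 to 84978718, minus strand) encodes a Jun family partner of the Fos proteins in AP-1. Naïve mice ran from 118 CPM in mouse 2 over a median of 161 to 343 CPM in mouse 5, which stood well above the other 5 naïve mice (118 to 175 CPM). Withdrawn mice 1 to 5 had 172, 129, 185, 369.8 and 222 CPM. As for Fos, withdrawn mouse 4 was the highest of all mice, and the other 4 withdrawn mice lay within the naïve range. The difference, at a log2 fold change of 0.25 (SE 0.30, edgeR adjusted p = 0.926), turned to -0.04 without withdrawn mouse 4. Junb shares 173 exonic bases with Prdx2 on the opposite strand, and since the sources used here do not say whether reads were counted by strand, its counts are uncertain to that extent. None of the other 9 genes shares exonic bases with another gene.

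Egr1 (ENSMUSG00000038418, chromosome 18, 34859823 to 34864984, plus strand), a zinc finger transcription factor induced by synaptic activity and growth factors, had the highest counts of the set in every mouse but withdrawn mouse 4, where Fos was higher. Naïve mice ran from 519 CPM in mouse 6 over a median of 818 to 1429 CPM in mouse 4. The withdrawn mice had 673, 677, 1020.1, 754 and 996 CPM in mice 1 to 5. All 5 lay inside the naïve range and spread less than the naïve mice, with a coefficient of variation (CV, the SD as a percentage of the mean) of 20.8% against 45.0%. Between the groups Egr1 had a log2 fold change of -0.17 (SE 0.28, edgeR adjusted p = 0.949).

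Egr3 (ENSMUSG00000033730, chromosome 14, 70077203 to 70082614, plus strand), a relative of Egr1, ran from 88.8 CPM in mouse 5 over a median of 123 to 179 CPM in mouse 4 in naïve mice. Withdrawn mice 1 to 5 had 71.5, 155, 144, 83.7 and 154 CPM. Withdrawn mice 1 and 4 were below every naïve mouse and the other 3 above the naïve median, so that the group split to both sides. This left a log2 fold change of -0.10 (SE 0.26, edgeR adjusted p = 0.969).

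Npas4 (ENSMUSG00000045903, chromosome 19, 4984355 to 4990316, minus strand) encodes a transcription factor that is found mainly in neurons and responds to calcium entry. Naïve mice ran from 2.91 CPM in mouse 5 over a median of 19.4 to 35.3 CPM in mouse 1. The withdrawn mice had 2.09, 9.51, 42.3, 13.5 and 20.1 CPM in mice 1 to 5. The highest value was 12.1 times the lowest among naïve mice and 20.3 times the lowest among withdrawn mice, the widest spread of the 10 genes in either group. Its log2 fold change of -0.13 (edgeR adjusted p = 0.985) came with the largest SE of the set, 0.71.

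Nr4a1 (ENSMUSG00000023034, chromosome 15, 101254269 to 101274795, plus strand) encodes an orphan nuclear receptor whose transcription is induced by calcium and cAMP signals. In naïve mice it ran from 79.8 CPM in mouse 6 over a median of 154 to 221 CPM in mouse 5. The withdrawn mice had 94.7, 51.0, 201, 102 and 185 CPM in mice 1 to 5. Mouse 2 was below every naïve mouse and none was above the naïve range. edgeR gave a log2 fold change of -0.32 (SE 0.35, adjusted p = 0.911), and -1.16 without the 3 mice with conflicting labels, that is for withdrawn mice 1 and 2 (edgeR unadjusted p = 0.0177).

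Arc (ENSMUSG00000022602, chromosome 15, 74669083 to 74672570, minus strand) encodes a synaptic protein that promotes the removal of AMPA receptors from the membrane. Naïve mice ran from 106 CPM in mouse 6 over a median of 248 to 619.9 CPM in mouse 5. Withdrawn mice 1 to 5 had 126, 241, 248, 140.4 and 242 CPM. The withdrawn mice all lay inside the naïve range, and 3 of them lay close together near the naïve median. Arc had a log2 fold change of -0.61 (SE 0.39, edgeR adjusted p = 0.818), which was -0.26 without naïve mouse 5 and -0.17 without both naïve mouse 5 and withdrawn mouse 4.

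Ier2 (ENSMUSG00000053560, chromosome 8, 84661331 to 84662852, minus strand), an intronless immediate early gene, was the most even of the 10 in naïve mice, with a CV of 21.8%. Naïve mice ran from 31.2 CPM in mouse 4 over a median of 37.5 to 54.8 CPM in mouse 1. The withdrawn mice had 41.1, 26.3, 42.1, 187 and 44.6 CPM in mice 1 to 5. Mouse 4 was more than 4 times as high as any other withdrawn mouse, mouse 2 was below every naïve mouse, and the other 3 lay inside the naïve range. The log2 fold change of 0.74 (SE 0.43, edgeR adjusted p = 0.787) turned to -0.08 (SE 0.24) without withdrawn mouse 4.

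Without the 3 mice with conflicting labels, which leaves withdrawn mice 1 and 2, Fos was the only one of the 10 genes with a log2 fold change above 0. Beside the values given for Fos, Fosl2 and Nr4a1, it was -1.35 for Fosb and -1.81 for Npas4 (edgeR unadjusted p = 0.0984 and 0.106, adjusted p = 0.791 and 0.796). In all mice Fosb was at -0.60 and Npas4 at -0.13. Without the 3 mice Arc was at -0.79, Egr1 at -0.51, Junb at -0.32, Ier2 at -0.31 and Egr3 at -0.26, and edgeR called 0 of the 10.

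**Figure D2:**
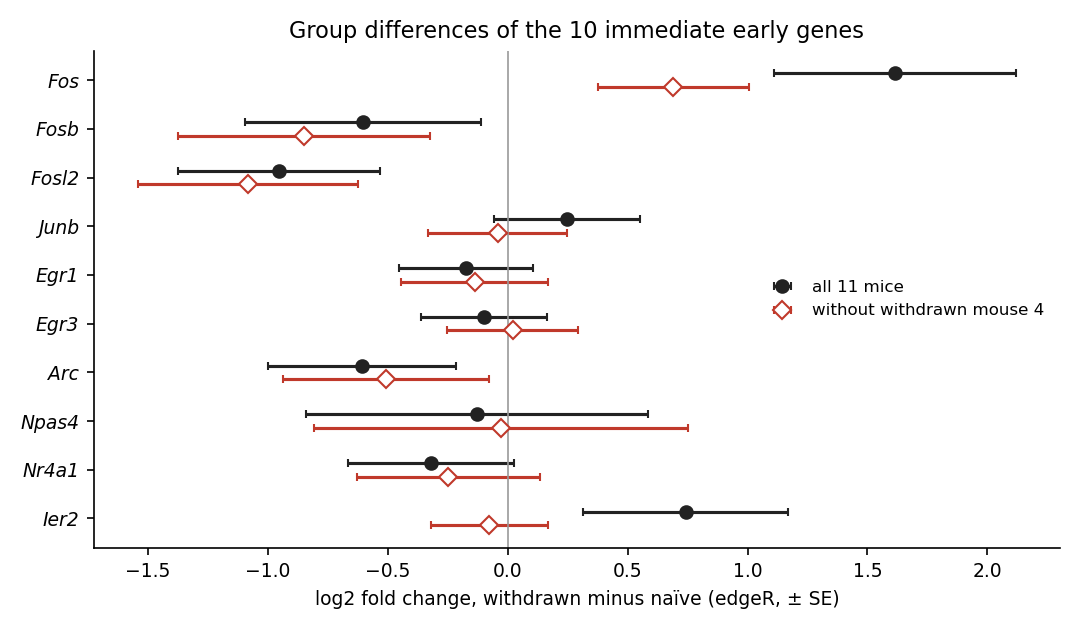
Log2 fold change of each gene, withdrawn minus naïve, from edgeR with its standard error, for all 11 mice (filled circles) and without withdrawn mouse 4 (open diamonds). Leaving out the mouse moves Fos from 1.61 to 0.69 and Ier2 from 0.74 to -0.08, while Fosl2 stays at -0.95 and -1.08.

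The mice did not carry all 10 genes up or down together. Set against the mean of naïve mice on the log2 scale, naïve mice 3 and 4 each had 9 of the 10 genes above it, and naïve mouse 2 had 9 below. Withdrawn mouse 2 also had 9 of 10 below, all but Egr3, with Fosl2 lowest at -1.91. Withdrawn mouse 1 had 7 below, with Npas4 at -2.63, but Fos at 1.22 above. Withdrawn mice 3 and 5 had 8 and 7 of the 10 above the naïve mean, by a median of 0.17 and 0.26. Withdrawn mouse 4 had 4 above and 6 below, from 3.22 for Fos to -0.86 for Arc, so that its high values were those of Fos, Ier2, Junb and, by less, Fosb.

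**Figure D3:**
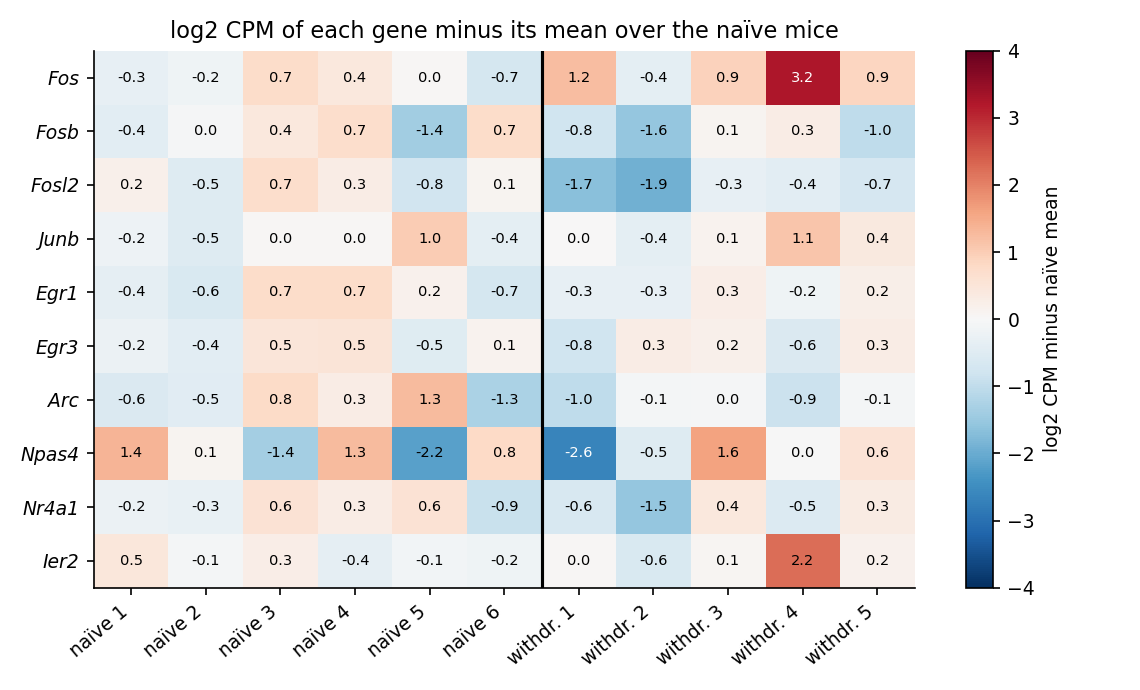
Log2 CPM of each gene minus its mean over the 6 naïve mice, with genes in rows, mice in columns and the value written in each cell. Withdrawn mouse 4 reaches 3.22 in Fos and 2.22 in Ier2 with Arc, Egr3 and Nr4a1 below the naïve mean, and withdrawn mouse 2 is below the naïve mean in 9 of 10 genes.

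Across the 11 mice, the log2 CPM of the other 9 genes was compared with that of Fos by Pearson's r and Spearman's rho with permutation tests, adjusted over the 9 relations. None passed. The highest r were those of Ier2 (r = 0.83, permutation p = 0.0152, adjusted p = 0.0868; rho = 0.56, permutation p = 0.0759) and Junb (r = 0.69, permutation p = 0.0193, adjusted p = 0.0868; rho = 0.70, permutation p = 0.0205). Without the 2 mice farthest from the median of Fos, withdrawn mouse 4 and naïve mouse 6, both r were 0.31, so that the relations rest on those mice. Of the pair, withdrawn mouse 4 carried them, since without it alone r was 0.35 for Ier2 and 0.41 for Junb, and without naïve mouse 6 alone 0.84 and 0.65. Other single mice also moved them past the test, with r = 0.94 for Junb without naïve mouse 5 (permutation, adjusted p = 0.0051) and r = 0.90 for Ier2 without naïve mouse 1 (permutation, adjusted p = 0.027). For Fosb and Fosl2, the closest relatives of Fos in the set, r was 0.17 (permutation p = 0.639) and -0.03 (permutation p = 0.922). Egr1, Egr3, Arc, Npas4 and Nr4a1 had r between -0.32 and 0.25. As a description over all 45 pairs of the 10 genes, the median r was 0.20, and 9 pairs were above 0.5. After Fos and Ier2, the pairs with the highest r were Fosb with Fosl2 (0.77), Egr1 with Nr4a1 (0.76) and Egr1 with Arc (0.74).

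The genes outside the set whose log2 CPM over the 11 mice was most like the mean of the 10 standardised profiles included, in order, Uvrag, Tlnrd1, Fbxo8, Rspry1, Snupn, Grk5, Tmem267, Cyp4x1 and Cops2, with r from 0.89 to 0.79. Of the 10 immediate early genes themselves, Egr1 (0.78), Nr4a1 (0.75) and Fosl2 (0.73) lay closest to that mean, of which each is a part, and Npas4 lay farthest from it (0.34).

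The ratio of Fos counts to those of another gene in the same mouse does not depend on library size, and was examined after the values above were seen. Naïve mice had 2.81 to 8.72 Fos counts per Fosl2 count (median 5.25). Withdrawn mice 1 to 5 had 37.3, 14.5, 12.0, 61.7 and 14.5. Each withdrawn mouse, including mouse 2 with its low Fos, was thus above every naïve mouse, and the mean log2 ratio was 4.49 ± 1.03 (SD, n = 5) against 2.31 ± 0.60 (SD, n = 6). The ratio of Fos to Nr4a1 separated the groups in the same way, with 0.406 to 0.673 in naïve mice and 2.16, 1.30, 0.837, 8.01 and 0.860 in withdrawn mice 1 to 5. Fos and Fosl2 are both AP-1 subunits, whereas Nr4a1 acts outside AP-1. For Fosb the groups overlapped because of naïve mouse 5 (19.5), the other naïve mice having 2.57 to 8.72 and the withdrawn mice 28.6, 16.0, 12.5, 53.7 and 26.4. The ratio was thus higher in every withdrawn mouse for 2 of the 9 other genes, Fosl2 and Nr4a1. A higher ratio was not particular to these, since 4 of 5 withdrawn mice were above every naïve mouse for Egr1, Egr3 and Arc. The number was 3 of 5 for Fosb, Junb and Ier2, and 2 of 5 for Npas4. Of 12226 tested genes with a count in every mouse, 2.72% had such a ratio to Fos. Leaving out single mice kept the log2 ratio of Fos to Fosl2 higher in withdrawn mice by 1.82 to 2.41, and it was 2.23 higher without the 3 mice with conflicting labels.

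**Figure D4:**
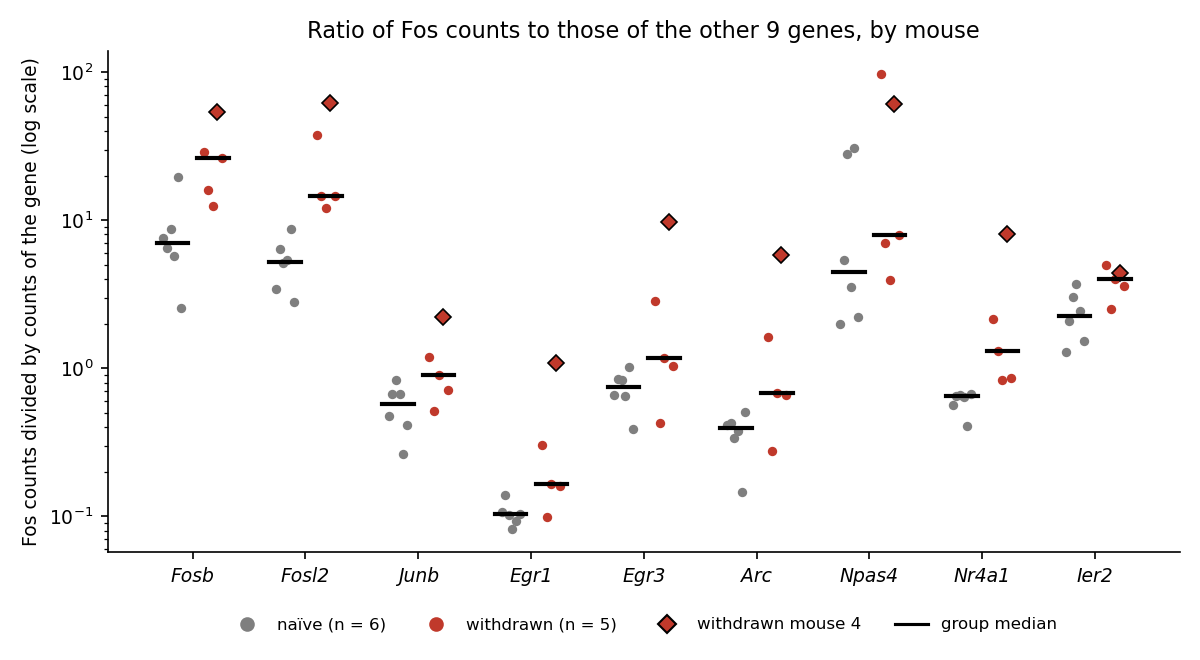
Fos counts divided by the counts of each of the other 9 genes in the same mouse (log axis), for naïve mice (grey, n = 6) and withdrawn mice (red, n = 5), with medians as black bars and withdrawn mouse 4 as a diamond. All withdrawn mice lie above all naïve mice for Fosl2 (at least 12.0 against at most 8.72) and Nr4a1 (at least 0.837 against at most 0.673).

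To compare levels between genes, CPM was divided by the length of the merged exons in kilobases. In naïve mice Egr1 was highest at 207 ± 93.2 CPM per kb (SD, n = 6), followed by Arc (99.5 ± 63.3), Junb (78.9 ± 35.8), Nr4a1 (45.1 ± 16.6), Fos (39.3 ± 14.3), Egr3 (29.6 ± 9.22) and Ier2 (26.7 ± 5.82). Npas4 (4.64 ± 3.33), Fosb (2.24 ± 1.03) and Fosl2 (1.93 ± 0.690) formed a lower tier. The only neighbours in this order whose mean ± SD ranges did not overlap were Ier2 and Npas4. In withdrawn mice Egr1 was again highest, at 184 ± 38.2 CPM per kb (SD, n = 5), and Fos came next at 120 ± 129, an SD larger than its mean. The same 3 genes were lowest, Npas4 at 4.23 ± 3.71, Fosb at 1.47 ± 0.779 and Fosl2 at 0.997 ± 0.452, and the only gap between neighbours was that between Egr3 and Npas4. Egr1 in naïve mice was at percentile 98.8 of all tested genes by level per kb, and Fosl2 at percentile 37.1. Naïve mice differed more from each other in most of the 10 genes than in a typical gene, since 8 of the 10 had a CV above 33.2%, the median over the 11834 genes with a mean of at least 5 CPM.

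Among further genes of these families Jun, the partner of Fos in AP-1, stood closest to Fos in its values by mouse. Of 16 further AP-1, EGR, NR4A and IER family genes, 15 were tested and 0 were called. At an unadjusted edgeR p under 0.05, 1 was higher, Jun, against 5% of all tested genes, and 0 were lower, against 2.22%. Jun was at 35.3 to 161 CPM in naïve mice and at 211, 62.8, 127, 488 and 92.1 CPM in withdrawn mice 1 to 5. Withdrawn mouse 4 was again the highest and mouse 2 the lowest of its group. The log2 fold change of Jun was 1.38 (SE 0.49, edgeR unadjusted p = 0.0139, adjusted p = 0.468), and 0.71 without withdrawn mouse 4 (unadjusted p = 0.0984). Nr4a3, Egr4 and Ier5 were next by p, with log2 fold changes of -0.79, -0.69 and -0.47 and edgeR adjusted p of 0.731 or more. The median log2 fold change of the 15 was -0.03.

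Of 40 other activity-regulated genes, all tested, 0 were called, and the median log2 fold change over the 40 was -0.09. At an unadjusted edgeR p under 0.05 there were 2 higher in withdrawn mice (Ccn1 and Dusp1), against 5% of all tested genes. There were 2 lower (Scg2 and Bdnf), against 2.22%. Scg2, which encodes the granule protein secretogranin II, averaged 261 ± 86.4 CPM (SD, n = 5) in withdrawn and 437 ± 107 CPM (SD, n = 6) in naïve mice. Its log2 fold change was -0.74 (SE 0.23, edgeR unadjusted p = 0.0060, adjusted p = 0.336). Bdnf, which encodes brain-derived neurotrophic factor, averaged 84.5 ± 25.4 CPM (SD, n = 5) against 137 ± 27.8 CPM (SD, n = 6). Its log2 fold change was -0.70 (SE 0.22, edgeR unadjusted p = 0.0068, adjusted p = 0.358), and without withdrawn mouse 4 it was -0.67 for Scg2 and -0.65 for Bdnf. Dusp1, which encodes a phosphatase of MAP kinases, had a log2 fold change of 0.73 (SE 0.31, adjusted p = 0.624), and Ccn1, a matricellular protein gene also known as Cyr61, one of 2.67 (SE 1.09, adjusted p = 0.594). Both were highest in withdrawn mouse 4, which held 66.3% of the summed CPM of Ccn1 in its group, and without it they were at 0.36 and 1.43. Dusp14, another such phosphatase gene and with Scg2 the highest per kb of this list, was at -0.34 (adjusted p = 0.829).

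Upstream of these genes, 43 genes for calcium entry, calmodulin, calcineurin, kinases and promoter-bound factors were tested. At an unadjusted edgeR p under 0.05, 0 of the 43 were higher, against 5% of all tested genes, and 5 were lower, against 2.22%. The list was not tested as a set, and 0 of the 43 were called. Those lower included Grin2a, an NMDA receptor subunit gene, and Ppp3cb, a catalytic subunit gene of calcineurin. Grin2a averaged 112 ± 29.5 CPM (SD, n = 5) in withdrawn and 163 ± 26.9 CPM (SD, n = 6) in naïve mice. Its log2 fold change was -0.54 (SE 0.19, edgeR adjusted p = 0.473), and that of Ppp3cb was -0.48 (SE 0.22, edgeR adjusted p = 0.689). The median log2 fold change of the 43 was -0.06.

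**Figure D5:**
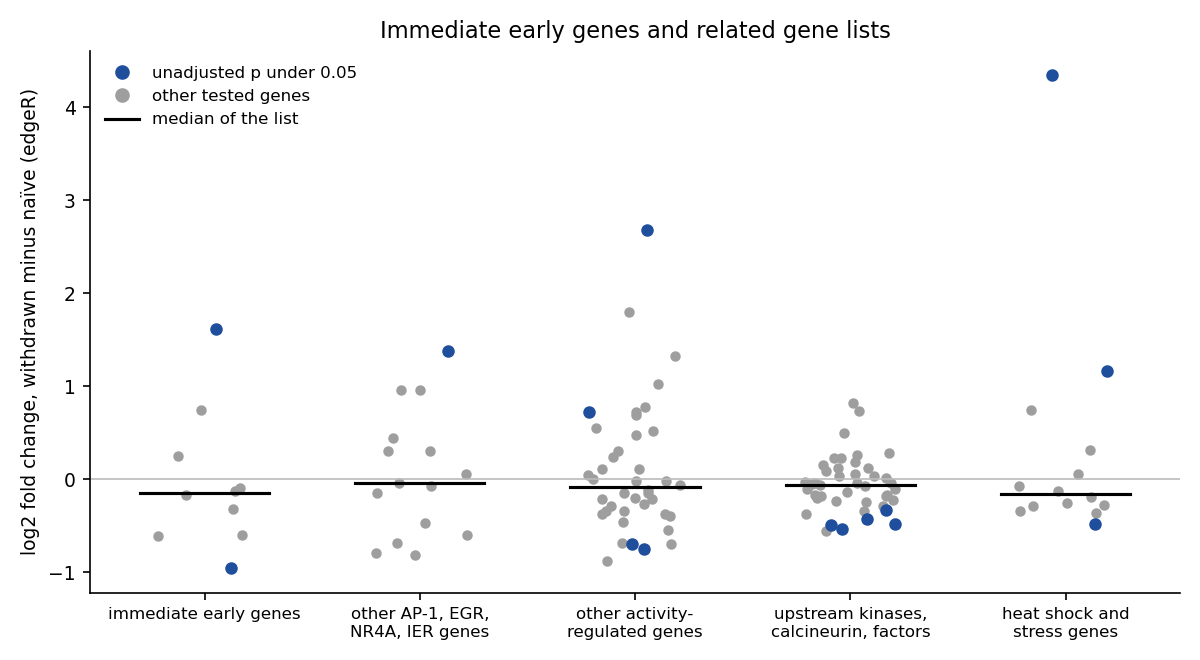
Log2 fold change, withdrawn minus naïve (edgeR), of each tested gene of the 10 immediate early genes and 4 related lists, with genes at an unadjusted p under 0.05 in blue, others in grey and list medians as black bars. All 5 medians lie between -0.16 and -0.03, and single genes such as Fos (1.61), Jun (1.38) and Bag3 (4.34) lie apart from them.

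Heat shock and stress genes that are reported to rise on tissue dissociation were read beside the immediate early genes. Of these 14 genes, edgeR called 0. At an unadjusted edgeR p under 0.05 there were 2 higher (Bag3 and Hspa1a), against 5% of all tested genes, and 1 lower (Hspa8), against 2.22%. Bag3, which encodes a co-chaperone of Hsp70, was at 0 to 2.85 CPM in naïve mice and at 27.0, 17.8, 18.4, 41.3 and 10.5 CPM in withdrawn mice 1 to 5. It did not overlap between the groups, and its log2 fold change was 4.34 (SE 0.82, edgeR adjusted p = 0.0883; DESeq2 adjusted p = 4.5e-07). Hspa1a, an inducible Hsp70 gene, was at 1.16 (SE 0.53, edgeR adjusted p = 0.683) and was highest in withdrawn mouse 4 at 30.1 CPM. Hspa8 and Hsp90ab1, constitutive chaperone genes and the highest per kb of the list, were at -0.48 and -0.29 (edgeR adjusted p = 0.560 and 0.711). The summed CPM of the 14 genes was 7294 to 10374 in naïve and 5830 to 8650 in withdrawn mice, and its part in the levels of Fos was not tested.

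Markers of some other cells were above the naïve range in the withdrawn mice that were high in Fos. The summed CPM of 8 fibroblast markers was 0.0677 to 71.7 in naïve mice and 1353, 12.3, 688, 1005 and 232 in withdrawn mice 1 to 5. The 4 withdrawn mice above the naïve range in Fos were the 4 above it in fibroblast markers, and withdrawn mouse 2 was within it in both. All 6 fibroblast markers that were tested (Dcn, Col1a1, Col1a2, Col3a1, Ogn and Pdgfrb) had an unadjusted edgeR p under 0.05 and higher levels in withdrawn mice. Over all tested genes this share was 5%. Of the 6, edgeR called 0 and DESeq2 called 3, against 0.887% of all genes in DESeq2. The other 2, Lum and Igf2, were too low to be tested, and in naïve mouse 5 all fibroblast markers but Lum were at 0. Pdgfrb is also in the list of mural cell markers. The summed CPM of 8 microglia markers was likewise above the naïve range (8.81 to 26.2) in the same 4 mice, at 29.1 to 45.1, and at 8.28 in mouse 2, although P2ry12 and C1qa were at 0 in most mice. The sum of 6 astrocyte markers was above the naïve range in 3 of those 4, but through Gja1, which is not restricted to astrocytes, at 309, 217 and 273 CPM in mice 1, 3 and 4. Of the 5 astrocyte markers tested, 4 had a log2 fold change below 0, and the median was -0.63. Endothelial and oligodendrocyte markers were above the naïve range in 0 of 5 withdrawn mice, oligodendrocyte precursor markers in 2 and mural markers in 1. The sum of 6 GABAergic neuron markers was 73.3 to 923 CPM in naïve and 28.5 to 669 CPM in withdrawn mice. Of these, Sst was at 0.0677 to 699 CPM in naïve and 0 to 32.6 CPM in withdrawn mice, while the other 5 had a log2 fold change above 0. Summed pan-neuronal markers were lower in withdrawn mice (6202 to 9857 CPM) than in naïve mice (9465 to 12305 CPM), with 1 of 5 withdrawn mice inside the naïve range. The part of these markers in the levels of Fos, Jun and Ier2 was not tested.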

How the data were processed

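RNA from mPFC CRF1+ neurons of 6 naïve and 5 withdrawn male CRF1:GFP mice was sequenced, 1 library per mouse. The authors used cutadapt for trimming, STAR for alignment to GRCm38 and HTSeq for counting per Ensembl gene, and deposited the raw counts. Tallied reads that were not assigned to a gene (18.9% to 58.0% per mouse) stayed out of library sizes and tests. Symbols and coordinates came from GENCODE M21 on the same assembly, which names 53274 of the 53465 genes, and 4 older symbols in the lists were matched through RefSeq synonyms. All 10 members matched by symbol.

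Counts were compared with edgeR 4.0.16 (R 4.3.3; TMM; filterByExpr with a minimum count of 10 and a minimum total of 15; quasi-likelihood test), with Benjamini-Hochberg adjustment over all 17093 tested genes. A call required an adjusted p no higher than 0.05 together with a log2 fold change beyond 0.6 in size. The SE is the size of the log2 fold change divided by the square root of F. CPM used TMM-scaled library sizes, log2 CPM a prior count of 2, and correlations 100000 permutations (two-sided). Alternatives were DESeq2 1.42.0, limma 3.58.1 voom with quality weights, other scalings, filters and dispersions, a replicate block and mice left out. The scripts were tested on simulated data. Motifs were searched in RefSeq promoters (GRCm38.p6).

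Mice were grouped by the recorded treatment. P-values measure the spread between mice, and no 2 libraries agreed within counting noise. Floors cover counting error only, since the reads carry no molecular identifiers and come from amplified cDNA. The 10 genes and the gene lists were chosen with earlier results of these data known. Named beside the 10 genes were, of each related list, up to 4 genes with the smallest unadjusted p and the 2 with the highest level per kb, the 10 genes most like the mean of the set, and any marker list standing apart between groups. Ppp3cb, the ratios to Fos and the motif positions were added after their values were seen. Some genes that meet the naming rule are not reported here.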

Additional observations from a re-analysis of the deposited data

Results flagged for a closer look

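Within each group, a mouse was marked where its log2 CPM lay farther from the other mice than Dixon's test allows at the 95% level. Of 52 sets of values tested, 4 were marked, where chance would give about 2.6 (1 in 20). Of the immediate early genes, Ier2 in withdrawn mouse 4 was at 7.54 on the log2 CPM scale, against 4.73 to 5.48 in the other withdrawn mice, and Junb in naïve mouse 5 was at 8.42, against 6.88 to 7.45 in the other naïve mice. Fos in withdrawn mouse 4, at 819 CPM, was not marked. Of the related genes, Grin2a was at 7.75 in naïve mouse 3 (7.10 to 7.32 in the others) and Hspa8 at 11.5 in naïve mouse 5 (10.6 to 10.9). The 2 mice that differed most in genes detected, naïve mouse 5 and withdrawn mouse 4, account for 3 of the 4.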

How the results depend on the processing

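None of the 10 immediate early genes was called under any alternative. Of the 10, 1 (in DESeq2 with withdrawn mouse 4 left out, among others) to 3 had an unadjusted p under 0.05. These were not always Fos and Fosl2. With the replicate number as a block they were Fos, Arc and Nr4a1 (edgeR unadjusted p = 0.041, 0.029 and 0.023). Without the 3 mice with conflicting labels they were Fosl2 and Nr4a1. In DESeq2 with withdrawn mouse 4 left out it was Fosl2 (unadjusted p = 0.0080), with Fos at 0.055. The number of genes called over the whole table depended on the setting, with 1 in edgeR as reported, 362 in DESeq2, 372 in DESeq2 without the Cook's distance cutoff, 157 in DESeq2 with withdrawn mouse 4 left out, 137 without a low-count filter and 30 with at least 10 counts in every mouse. It was 0 without the 3 mice with conflicting labels, 0 with the share of reads outside exons as a covariate and 0 without naïve mouse 5 and withdrawn mouse 4. Leaving out each mouse in turn gave 0 to 193 calls (193 without withdrawn mouse 2), 0 of them among the 10 genes, and 1 to 3 of the 10 at an unadjusted p under 0.05. The covariate, the fit without both of those mice, the DESeq2 fits beyond the first and the ratios with mice left out were chosen after seeing the data.

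Fos stayed above 0 in each alternative and with each mouse left out (log2 fold change 0.52 to 1.84, adjusted p from 0.0773) and Fosl2 below 0 (-1.94 to -0.78, adjusted p from 0.271). With the covariate Fos was at 1.03. Junb and Ier2 turned to -0.32 and -0.31 without the 3 mice with conflicting labels and to -0.035 and -0.063 in DESeq2 with withdrawn mouse 4 left out, and Ier2 to -0.10 without both marked mice. Egr1 turned to 0.0021 in voom, Egr3 to 0.032 in DESeq2 with withdrawn mouse 4 left out, and Npas4 to 0.029 with the covariate. With each mouse left out in turn, Junb ran from -0.041 to 0.54, Egr3 from -0.21 to 0.035, Npas4 from -0.77 to 0.15 and Ier2 from -0.076 to 0.93. The turns in voom and with the covariate came with all 11 mice, the others with fewer mice. The cause of these turns was not tested.

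Correlations with Fos were centred on group means as an alternative, and then 1 of 9 passed (Ier2, r = 0.85), while Fosl2 turned to 0.53 and Arc to 0.032. Without the 2 mice farthest from the median of Fos, Fosl2 turned to 0.045 and Egr3 to 0.039. With each mouse left out, 0 to 1 of the 9 passed (Junb without naïve mouse 5 and Ier2 without naïve mouse 1), and r ran from -0.021 to 0.39 for Fosb, from -0.27 to 0.085 for Fosl2, from -0.38 to 0.19 for Arc and from -0.048 to 0.52 for Nr4a1.

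Naïve and withdrawn mice with the same number are separate animals, and the deviations of the 5 same-numbered pairs correlated at -0.20 to 0.18, so the numbers do not pair them. With the replicate number as a block, 0 genes were called, Fos was at 1.01 and Npas4 turned to 0.0067. Of the 5 withdrawn mice, 1 correlated best with its own number.

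With 11 mice and counts of 29 to 906 for Npas4 and 37 to 346 for Fosb, their standard errors were 0.71 and 0.49 on the log2 scale. These are not limits of detection. A call needs a difference well beyond the standard error, so differences of this size were not detectable and larger ones could be missed.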
